A study of Mus musculus with 2 samples.

Results

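The CD3 and proximal T cell receptor (TCR) signalling genes described here are Cd3d, Cd3e, Cd3g, Cd247, Lck, Zap70, Lat, Themis and Cd5. These 9 genes were taken by symbol from the 31253 genes of a single-cell RNA count table of mouse thymocytes, and all 9 were present. The αβ and γδ TCR chains, and those of the pre-TCR of immature thymocytes, carry no signalling motif of their own. The αβ TCR reaches the cell surface together with the CD3γ, CD3δ and CD3ε chains and the ζ chain, which Cd247 encodes. On receptor engagement the kinase Lck phosphorylates motifs in these chains, the kinase Zap70 docks on them, and Zap70 then phosphorylates the membrane adaptor Lat, on which the downstream signal assembles. Themis is a T lineage adaptor needed for positive selection, and CD5 is a surface receptor that dampens TCR signals and whose level on thymocytes is widely read as a record of TCR signal strength.

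Single-cell RNA was measured with 10x Genomics 3′ v3.1 kits in thymus cells taken with beads against CD25, the IL-2 receptor α chain. The tested library came from SETDBf/fCD4-Cre mice, called cKO, and the other from WT mice, with 1 library each. In the cKO mice Cre recombinase is driven by CD4 regulatory sequences, which act from late in the double-negative (DN) stage onward, so DN cells are taken to precede most deletion, although the time of deletion was not examined. Which SETDB gene carries the floxed alleles, Setdb1 or Setdb2, both of the histone H3 lysine 9 methyltransferase family, is left unsaid in the label. The age, sex and number of animals behind each library and the Cre status of the WT mice are not given. Levels are counts per 1000000 (CPM), the unique molecular identifiers (UMIs, 1 per captured RNA molecule) of a gene relative to all UMIs of the same cells. Setdb1 stood at 30.1 CPM in cKO and 33.1 CPM in WT cells over all stages, and Setdb2 at 6.66 CPM in cKO and 6.34 CPM in WT. Tags from the 3′ end do not check a deletion of internal exons.

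The cKO library held 8461 barcodes and 76668166 UMIs, and the WT library 7852 barcodes and 89370968 UMIs, and 16 barcode sequences occurred in both. After filtering, 7372 cKO and 6989 WT cells were kept, with medians of 4653 UMIs per cell in cKO and 7700 in WT. Markers other than the 9 genes placed 88.9% of cKO and 89.9% of WT cells in 11 stages. They run over early DN-like cells, DN-like cells low in the pre-TCR α gene Ptcra, DN3-like cells, cycling cells without and with Cd8 RNA, and resting double-positive-like (DP-like) cells low and high in Trac, the TCRα constant gene. After these come post-selection-like cells, agonist-signalled-like cells, mature cells with few regulatory T cell (Treg) genes, and Treg-like cells. A stage held 63 to 1591 cells in cKO and 53 to 1442 in WT. Median depth per cell ran over stages between 2176 UMIs (cKO, Trac-high resting DP-like) and 30165 UMIs (WT, cycling CD8-negative). The mature Treg-gene-low cells still carried some Treg genes, with Ikzf2 at 1219 in cKO and 925 in WT, so they are called by their gate and not conventional T cells. Another 86 cKO and 106 WT cells carried B cell, myeloid or dendritic markers and are set beside the stages below as non-T cells. They also held T lineage RNA, with Trac at 76.15 CPM in cKO and 142 in WT, against 3.76 in cKO and 2.15 in WT in DN3-like cells, so a stage level near that of non-T cells does not show that a gene is absent there.

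Levels below are the CPM of the summed cells of a stage in 1 library. A single library per genotype allows no test between cKO and WT, and every interval in parentheses is an exact 95% interval that covers counting error only, not differences between mice, bead enrichments or captures. A cKO over WT ratio is called when it lies at least 1.5-fold from equality on log2 of (CPM + 5) and the gene has at least 20 UMIs over both libraries in that stage.

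Across the 11 stages the 9 genes followed the stage of the cell, and none of their 99 cKO over WT ratios passed 1.5-fold in the stages as gated. Of all genes tested, 1.69% did so in early DN-like, 0.872% in Ptcra-low DN-like, 0.945% in DN3-like, 0.322% in cycling CD8-negative and 1.98% in cycling CD8-positive cells. The share was 2.62% in Trac-low and 1.89% in Trac-high resting DP-like cells. It was 12.1% in post-selection-like, 11.5% in agonist-signalled-like, 17.6% in mature Treg-gene-low and 7.37% in Treg-like cells, stages with fewer UMIs. The highest ratio was that of Themis in cycling CD8-positive cells, 1.32 (1.19 to 1.47), and the lowest on the log2 scale was that of Cd5 in Treg-like cells, 0.708 (0.638 to 0.786). Between stages the mean of both libraries spanned 2.79-fold for Cd3e, 3.26-fold for Lat, 3.62-fold for Cd3g, 4.57-fold for Lck, 5.3-fold for Cd247, 6.68-fold for Cd3d, 14.2-fold for Zap70, 17.4-fold for Themis and 457-fold for Cd5. The lowest levels of Cd3d, Zap70, Themis and Cd5 lay near or below those of non-T cells, so the size of these 4 spans is uncertain. The stages ranked differently for different genes, which are taken here by role.

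**Figure D1:**
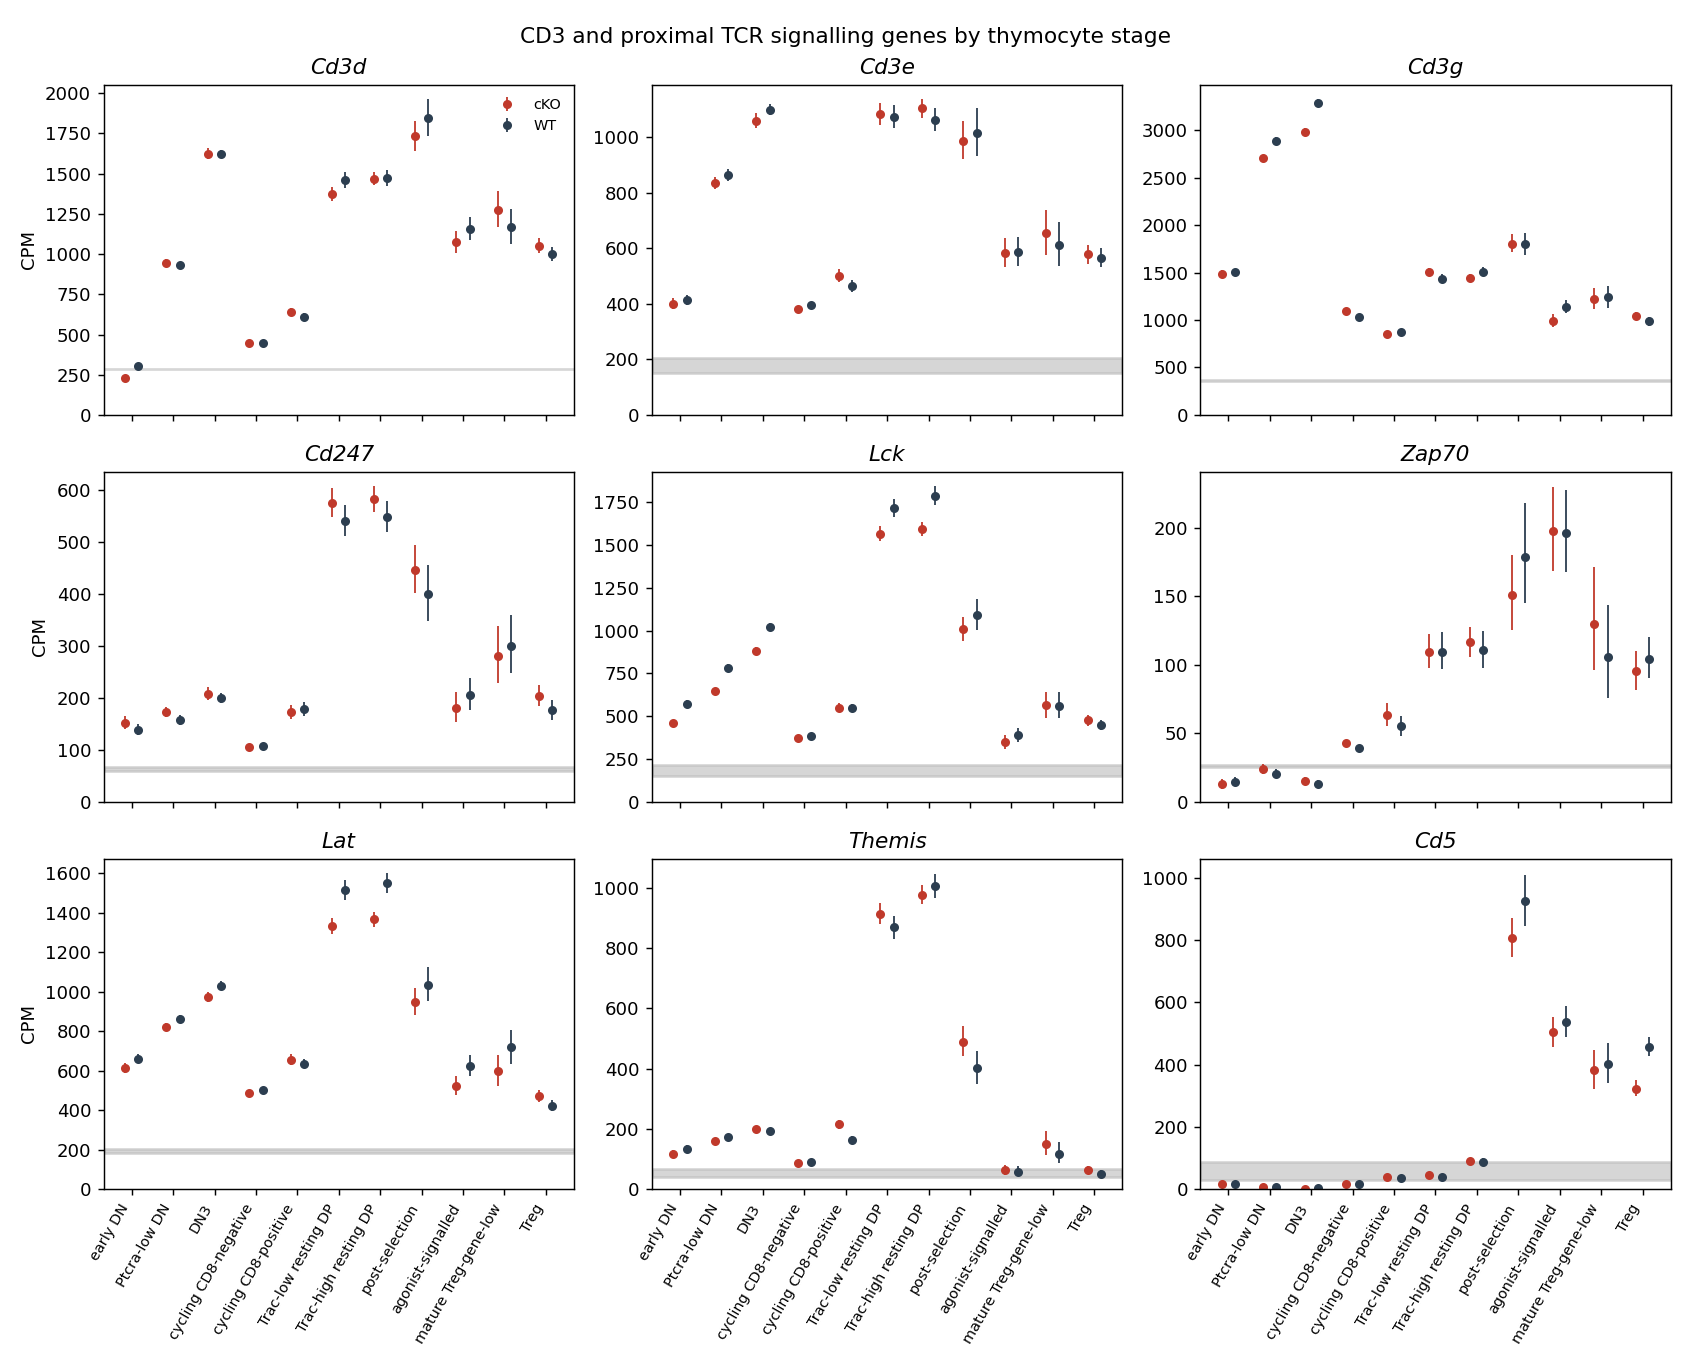
CPM (linear y axis) of the 9 genes in 11 thymocyte stages (x axis), with cKO in red at the left and WT in dark blue at the right of each stage. Bars are exact 95% Poisson intervals, and the grey band spans the levels in cKO and WT non-T cells. Cd3g is highest in DN3-like cells, Cd247, Lck, Lat and Themis in resting DP-like cells, Cd3d and Cd5 in post-selection-like cells and Zap70 in agonist-signalled-like cells.

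The genes of the γ, δ and ε chains are neighbours on chromosome 9. In the RefSeq table of GRCm38.p6 the start of Cd3d lies 1355 bases from that of Cd3g, on the opposite strand, and 27825 bases from that of Cd3e. Their promoters, from 250 bases before to 50 bases after the start, are shown because the genes lie side by side and yet ranked the stages differently. Capitals mark matches on either strand to CANNTG, the E-box bound by E proteins such as those of Tcf3 and Tcf12, to TGTGGT, the core of RUNX sites, or to AGGAAG, an ETS site. No 2 of these motifs overlapped in the windows shown.
Cd3g: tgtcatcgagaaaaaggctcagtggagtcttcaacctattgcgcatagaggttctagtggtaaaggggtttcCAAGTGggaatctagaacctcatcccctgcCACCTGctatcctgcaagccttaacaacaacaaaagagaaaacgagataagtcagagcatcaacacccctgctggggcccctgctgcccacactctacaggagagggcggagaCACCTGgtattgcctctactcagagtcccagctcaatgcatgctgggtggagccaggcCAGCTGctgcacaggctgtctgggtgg
Cd3d: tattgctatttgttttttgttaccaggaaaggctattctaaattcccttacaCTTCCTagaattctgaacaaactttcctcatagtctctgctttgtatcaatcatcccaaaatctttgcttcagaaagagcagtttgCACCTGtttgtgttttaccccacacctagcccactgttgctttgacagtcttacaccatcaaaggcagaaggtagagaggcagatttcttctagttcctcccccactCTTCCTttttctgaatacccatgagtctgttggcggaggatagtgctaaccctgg
Cd3e: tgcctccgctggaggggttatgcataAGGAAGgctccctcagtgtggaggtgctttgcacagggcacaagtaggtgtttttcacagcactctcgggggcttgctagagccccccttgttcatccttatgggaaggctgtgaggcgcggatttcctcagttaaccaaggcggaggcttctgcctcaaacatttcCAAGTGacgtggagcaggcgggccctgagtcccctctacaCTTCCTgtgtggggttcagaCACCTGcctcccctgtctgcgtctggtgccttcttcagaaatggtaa
The Cd3g window (chr9:44980382-44980681, minus strand) held 4 E-boxes and no match to the ETS letters. The Cd3d window (chr9:44981536-44981835, plus strand) held 1 E-box and 2 ETS matches, and the Cd3e window (chr9:45009562-45009861, minus strand) held 2 of each. None held TGTGGT. Of 32851 promoter windows of this length in the table, 72.3% held CANNTG, with a median of 1 match, 35.4% held AGGAAG and 16.8% held TGTGGT. These are letter matches, and no binding was measured.

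Cd3g (ENSMUSG00000002033), which encodes CD3γ, was highest in DN3-like and Ptcra-low DN-like cells. It stood at 2978 (2934 to 3022) CPM in cKO and 3289.9 (3253 to 3327) in WT DN3-like cells. Ptcra-low DN-like cells followed at 2704 in cKO and 2885 in WT. Early DN-like cells held 1489.6 in cKO and 1502 in WT, which overlapped with resting DP-like cells. Resting DP-like cells thus held less Cd3g than DN3-like cells, with DP over DN3 ratios of 0.493 (0.481 to 0.505) in cKO and 0.447 (0.435 to 0.459) in WT. Within the DP stage it was at 1503 in cKO and 1433 in WT in Trac-low and 1440.1 in cKO and 1507 in WT in Trac-high cells. Post-selection-like cells were higher again, at 1805 in cKO and 1801 in WT. The other stages lay lower in both libraries, with 1097 in cKO and 1029.9 in WT in cycling CD8-negative cells and the lowest values, 855 in cKO and 878 in WT, in cycling CD8-positive cells. Agonist-signalled-like cells held 993 in cKO and 1138 in WT, mature Treg-gene-low cells 1222 in cKO and 1240.1 in WT and Treg-like cells 1043 in cKO and 986 in WT, and the ranges of both libraries overlapped among agonist-signalled-like, cycling CD8-negative and Treg-like cells.

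Cd3d (ENSMUSG00000032094), which encodes CD3δ, was lowest where Cd3g was already abundant. Early DN-like cells held 232 in cKO and 304 in WT, against 289 in cKO and 285 in WT in non-T cells. Cd3d in early DN-like cells was thus near the level of non-T cells, and a ratio over early DN-like cells is of uncertain size. Ptcra-low DN-like cells held 946 in cKO and 930.5 in WT and DN3-like cells 1625 in cKO and 1623 in WT, and the DN3 over early DN ratio was 7.0 (6.55 to 7.5) in cKO and 5.34 (5.08 to 5.63) in WT. The same ratio was 2.0 in cKO and 2.19 in WT for Cd3g and 2.64 in cKO and 2.66 in WT for Cd3e. Resting DP-like cells stayed near the DN3 level, at 1375 in cKO and 1460.3 in WT in Trac-low and 1468 in cKO and 1471 in WT in Trac-high cells, and post-selection-like cells were the highest, at 1734 in cKO and 1847 in WT. Later stages lay below them, with 1073 in cKO and 1157 in WT in agonist-signalled-like, 1277 in cKO and 1168 in WT in mature Treg-gene-low and 1051 in cKO and 999 in WT in Treg-like cells. Cycling cells held 444 in cKO and 447 in WT without Cd8 RNA and 639 in cKO and 608 in WT with it. For Cd3d no pair of stages next to each other in rank had overlapping library ranges.

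Cd3e (ENSMUSG00000032093), which encodes CD3ε, shared by every CD3 dimer of the receptor other than the ζ pair, varied least. Its top ranks were 1104 in cKO and 1062 in WT in Trac-high resting DP-like, 1059.5 in cKO and 1099.8 in WT in DN3-like and 1083 in cKO and 1074 in WT in Trac-low resting DP-like cells. These 3 stages overlapped in rank order. Post-selection-like cells held 987 in cKO and 1016 in WT and Ptcra-low DN-like cells 834 in cKO and 863 in WT. Mature Treg-gene-low cells held 654 in cKO and 612 in WT, agonist-signalled-like cells 582 in cKO and 587 in WT and Treg-like cells 578 in cKO and 566 in WT. The lowest levels were 501 in cKO and 464 in WT in cycling CD8-positive, 401 in cKO and 414 in WT in early DN-like and 380.4 in cKO and 395 in WT in cycling CD8-negative cells, all above the 152 in cKO and 207 in WT of non-T cells.

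Cd247 (ENSMUSG00000005763), which encodes the ζ chain, was the CD3 complex gene with the clearest rise in DP-like cells on this scale. Resting DP-like cells held 576 in cKO and 542 in WT (Trac-low) and 583 in cKO and 549 in WT (Trac-high), against 209 in cKO and 200.3 in WT in DN3-like cells. The DP over DN3 ratio was 2.78 (2.61 to 2.97) in cKO and 2.72 (2.57 to 2.89) in WT. Post-selection-like cells held 447 in cKO and 399.5 in WT and mature Treg-gene-low cells 280.2 in cKO and 299.7 in WT. Agonist-signalled-like cells, at 181 in cKO and 206 in WT, and Treg-like cells, at 205 in cKO and 176 in WT, overlapped in range with DN3-like cells. The lowest level was 106 in cKO and 108 in WT in cycling CD8-negative cells. Cycling CD8-positive cells held 173 in cKO and 179 in WT, with 152 in cKO and 139 in WT in early DN-like and 174 in cKO and 158 in WT in Ptcra-low DN-like cells.

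The balance of Cd3d to Cd3g shows this change with no scaling to depth, since both counts come from the same cells. The ratio of Cd3d to Cd3g UMIs was 0.156 in cKO and 0.202 in WT in early DN-like cells, 0.35 in cKO and 0.323 in WT in Ptcra-low DN-like cells and 0.546 in cKO and 0.493 in WT in DN3-like cells. It was lower than in DN3-like cells in cycling CD8-negative cells, at 0.405 in cKO and 0.434 in WT, was 0.747 in cKO and 0.693 in WT in cycling CD8-positive cells, and lay between 0.915 and 1.08 in cKO and 0.942 and 1.03 in WT from the resting DP-like stages onward. Early DN-like cells thus carried several Cd3g UMIs for each Cd3d UMI, and cells from the DP stages onward carried about as many of one as of the other. The ratio of Cd247 to Cd3e UMIs was 0.528 in cKO and 0.517 in WT in Trac-high resting DP-like and 0.197 in cKO and 0.182 in WT in DN3-like cells. How well the kit captures each gene also sets the size of these ratios, so only their change across stages is described.

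**Figure D2:**
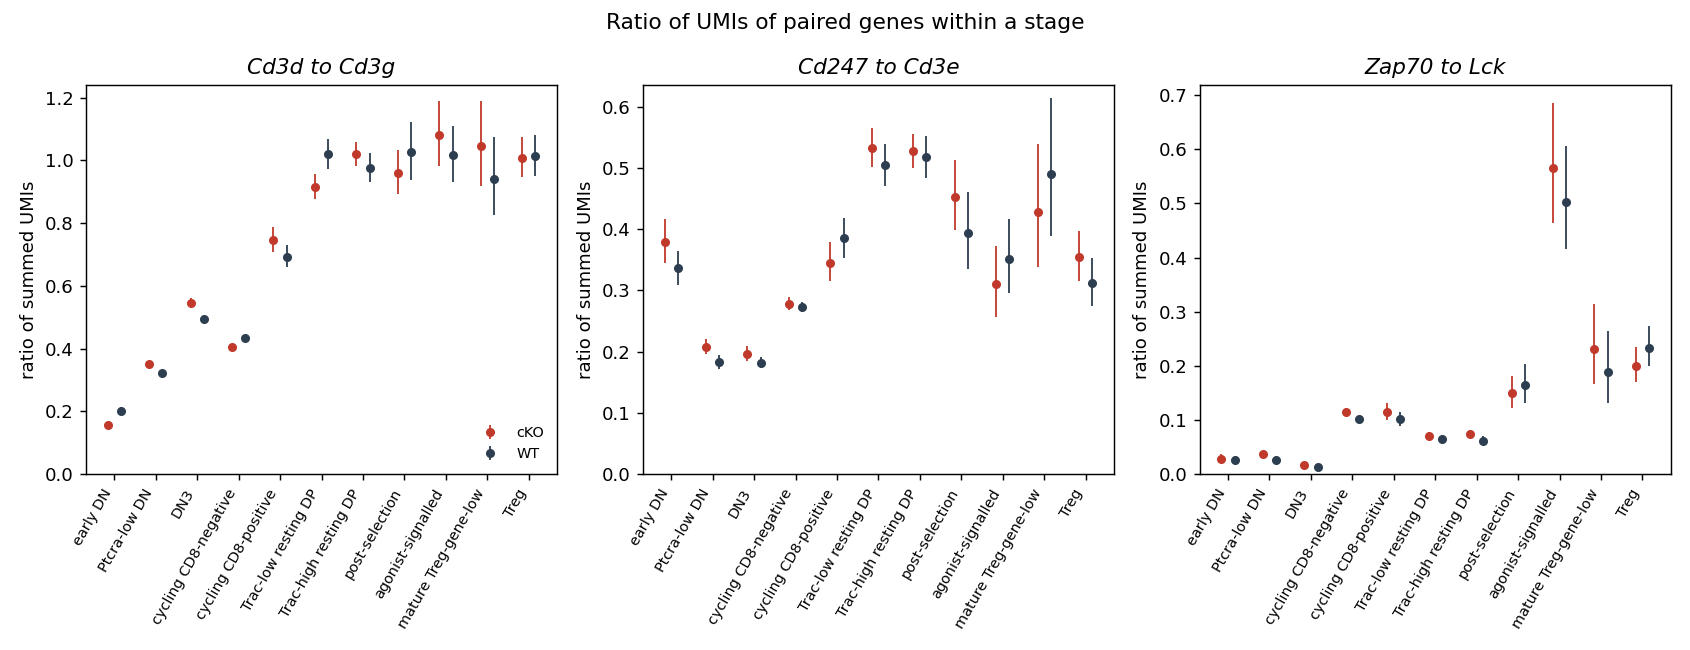
Ratio of the summed UMIs of 2 genes within a stage (linear y axis) for Cd3d to Cd3g, Cd247 to Cd3e and Zap70 to Lck in 11 stages (x axis), with cKO in red at the left and WT in dark blue at the right. Bars are exact 95% intervals for counting error. Cd3d to Cd3g climbs over the DN stages to about equal counts in DP-like and later cells, and Zap70 to Lck is highest in agonist-signalled-like cells, at 0.565 in cKO and 0.503 in WT.

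The order of stages depends on the scale, since resting DP-like cells held the fewest UMIs per cell and cycling CD8-negative cells the most. Counted as UMIs per cell, Cd3g stood at 33.4 in cKO and 31.8 in WT in cycling CD8-negative, 25.7 in cKO and 28.8 in WT in DN3-like and 3.34 in cKO and 3.79 in WT in Trac-high resting DP-like cells. Its rank in CPM therefore did not carry over to cycling cells. Cd247 stood at 1.35 in cKO and 1.38 in WT in Trac-high resting DP-like cells and 1.8 in cKO and 1.76 in WT in DN3-like cells, so that its higher CPM in DP-like cells went with fewer UMIs per cell. Cd3d, highest in CPM in post-selection-like cells, stood per cell at 5.13 in cKO and 6.08 in WT there and at 14 in cKO and 14.2 in WT in DN3-like cells. Depth per cell mixes RNA content with capture and sequencing depth, which were not told apart here.

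The share of cells with a UMI of all 4 CD3 complex genes differed by stage. It depends on how often each gene is found by itself, and whether they occur together beyond that was not tested. After each cell was thinned to 2000 UMIs, all 4 CD3 complex genes had a UMI in 52% of cKO and 51.7% of WT Trac-high resting DP-like cells and in 6.8% of cKO and 7.19% of WT early DN-like cells. In non-T cells, whose median depths before thinning were 4629 to 7919 UMIs, the share was 6.85% of cKO and 8.24% of WT, so the share in early DN-like cells was close to that in non-T cells. No CD3 gene was found in 21.4% of cKO and 23.2% of WT early DN-like and 57.5% of cKO and 68.2% of WT non-T cells, but in 0.295% of cKO and 0.0943% of WT DN3-like cells. Cd3g was found more often in early DN-like cells, in 69.4% (cKO) and 71% (WT), than in non-T cells, in 32.9% (cKO) and 24.7% (WT). So was Cd3e, with 49.7% (cKO) and 53.4% (WT) of early DN-like and 21.9% (cKO) and 21.2% (WT) of non-T cells. Cd247 was found in 32% (cKO) and 23.9% (WT) of early DN-like and 13.7% (cKO) and 10.6% (WT) of non-T cells. For Cd3d the shares were 27.2% (cKO) and 29.2% (WT) in early DN-like and 32.9% (cKO) and 27.1% (WT) in non-T cells. Cells with fewer UMIs than that were left out, 641 in cKO and 263 in WT in the Trac-high resting DP-like stage.

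Lck (ENSMUSG00000000409), the kinase that phosphorylates the CD3 and ζ motifs, was highest in CPM in resting DP-like cells. It stood at 1565 in cKO and 1713 in WT in Trac-low and 1589.8 in cKO and 1787 in WT in Trac-high cells. Post-selection-like cells held 1007 in cKO and 1092 in WT and DN3-like cells 879 in cKO and 1022 in WT, which overlapped. Ptcra-low DN-like cells held 648 in cKO and 781 in WT, early DN-like cells 459 in cKO and 572 in WT, cycling CD8-positive cells 549.8 in cKO and 548 in WT and cycling CD8-negative cells 371 in cKO and 387 in WT. Agonist-signalled-like cells held 349 in cKO and 389.8 in WT, which overlapped with cycling CD8-negative cells at the low end, with an agonist over post-selection ratio of 0.347 (0.302 to 0.397) in cKO and 0.357 (0.312 to 0.409) in WT. Mature Treg-gene-low cells held 563 in cKO and 561 in WT and Treg-like cells 476 in cKO and 447 in WT. Per cell, Lck stood at 3.68 in cKO and 4.5 in WT in Trac-high resting DP-like and 7.57 in cKO and 8.96 in WT in DN3-like cells, an order opposite to that in CPM.

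Zap70 (ENSMUSG00000026117), the kinase recruited to phosphorylated chains, took another course. Levels in the DN stages were 13 in cKO and 14.8 in WT (early DN-like), 24.1 in cKO and 20.4 in WT (Ptcra-low DN-like) and 15.1 in cKO and 13.3 in WT (DN3-like), all at or below the 26.7 in cKO and 25.8 in WT of non-T cells. DN levels of Zap70 are thus not read as expression or as its absence. Comparisons with them, such as its 14.2-fold span, are of uncertain size. Cycling cells held 42.7 in cKO and 39.7 in WT without and 63.1 in cKO and 55.3 in WT with Cd8 RNA, and resting DP-like cells 109 in cKO and 109.7 in WT (Trac-low) and 116 in cKO and 111 in WT (Trac-high). Levels climbed further to 151 in cKO and 179 in WT in post-selection-like and 197 in cKO and 196 in WT in agonist-signalled-like cells, the highest. Mature Treg-gene-low cells, at 129.7 in cKO and 106 in WT, overlapped with Trac-high resting DP-like cells, and Treg-like cells held 95.3 in cKO and 104 in WT. Agonist-signalled-like cells thus had the most Zap70 and were among the 2 stages lowest in Lck, and the Zap70 to Lck ratio was 0.565 in cKO and 0.503 in WT there and 0.15 in cKO and 0.164 in WT in post-selection-like cells.

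Lat (ENSMUSG00000030742), the membrane adaptor that Zap70 phosphorylates, ran close to Lck. It was highest in resting DP-like cells, at 1334 in cKO and 1515 in WT in Trac-low and 1367 in cKO and 1552 in WT in Trac-high cells. DN3-like cells held 974 in cKO and 1032 in WT and post-selection-like cells 949 in cKO and 1035 in WT, which overlapped. Ptcra-low DN-like cells held 821 in cKO and 863 in WT, early DN-like cells 612 in cKO and 661 in WT and cycling cells 656 in cKO and 635 in WT with and 488 in cKO and 503 in WT without Cd8 RNA. The later stages were low, with 599 in cKO and 718 in WT in mature Treg-gene-low, 523 in cKO and 625 in WT in agonist-signalled-like and 473 in cKO and 422 in WT in Treg-like cells, the lowest. All stages lay above the 184 in cKO and 203 in WT of non-T cells. Trac-high resting DP-like cells held 5040 Lat UMIs in 1591 cKO and 3778 in 967 WT cells. DN3-like cells held 5692 in 678 cKO and 9608 in 1062 WT cells, so per cell their order was opposite to that in CPM.

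Themis (ENSMUSG00000049109) was close to a DP gene among the 9. It stood at 915 in cKO and 869 in WT in Trac-low and 978 in cKO and 1005 in WT in Trac-high resting DP-like cells. DN3-like cells held 198 in cKO and 193 in WT, and the DP over DN3 ratio was 4.8 (4.51 to 5.12) in cKO and 4.87 (4.6 to 5.14) in WT. Here the rise was also seen per cell, with 2.27 UMIs in cKO and 2.53 in WT in Trac-high resting DP-like and 1.71 in cKO and 1.69 in WT in DN3-like cells. In post-selection-like cells Themis was at 490.03 in cKO and 401 in WT, and its ratio over resting DP-like cells was 0.516 (0.465 to 0.571) in cKO and 0.427 (0.371 to 0.49) in WT. Agonist-signalled-like cells held 61.8 in cKO and 57.3 in WT, an agonist over post-selection ratio of 0.126 (0.0926 to 0.169) in cKO and 0.143 (0.103 to 0.195) in WT, and Treg-like cells held 63.3 in cKO and 50.8 in WT. Non-T cells held 65.5 in cKO and 38.7 in WT and effector lymphocyte-like cells, described below, 25.8 in cKO and 38.7 in WT. Thinned cells with a Themis UMI made up 15.7% (cKO) and 12% (WT) of agonist-signalled-like, 11% (cKO) and 8% (WT) of Treg-like and 8.22% (cKO) and 8.24% (WT) of non-T cells. Mature Treg-gene-low cells held 148 in cKO and 116 in WT, early DN-like cells 118 in cKO and 134 in WT and Ptcra-low DN-like cells 159 in cKO and 172 in WT. Cycling cells held 215 in cKO and 163 in WT with and 85 in cKO and 89.8 in WT without Cd8 RNA.

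Cd5 (ENSMUSG00000024669), the inhibitory receptor gene, had the widest span of the 9. Its promoter is shown for that reason (RefSeq, GRCm38.p6, chr19:10738925-10739224, minus strand), with the same motifs in capitals, 2 E-boxes and 2 ETS matches.
Cd5: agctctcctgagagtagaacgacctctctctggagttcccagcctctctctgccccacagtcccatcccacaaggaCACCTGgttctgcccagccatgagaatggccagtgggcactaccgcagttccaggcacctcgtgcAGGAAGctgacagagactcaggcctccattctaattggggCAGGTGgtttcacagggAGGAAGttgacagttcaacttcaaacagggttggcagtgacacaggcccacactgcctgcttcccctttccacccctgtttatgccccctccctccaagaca
DN3-like cells held 1.54 in cKO and 2.26 in WT, from 9 UMIs in cKO and 21 in WT. The free RNA of the suspension therefore gave at most that level there. Ptcra-low DN-like cells held 7.91 in cKO and 7.6 in WT, early DN-like cells 16.7 in cKO and 14.6 in WT, and cycling cells 15.1 in cKO and 15 in WT without and 38 in cKO and 34.6 in WT with Cd8 RNA. Within the resting DP stage Cd5 was 89 in cKO and 86.3 in WT in Trac-high and 45.4 in cKO and 38.3 in WT in Trac-low cells, a Trac-high over Trac-low ratio of 1.96 (1.6 to 2.42) in cKO and 2.25 (1.75 to 2.92) in WT. The other 8 genes had ratios of 0.958 to 1.07 in cKO and 0.989 to 1.16 in WT over that step. Only 1 of 9573 genes in cKO and 3 of 9148 in WT were at least 2-fold higher in Trac-high cells, which is 0.0104% in cKO and 0.0328% in WT, and Cd5 was among them in WT.

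Post-selection-like cells had the most Cd5, 808 in cKO and 926 in WT, with a ratio over resting DP-like cells of 11.6 (10.3 to 13.1) in cKO and 14.7 (12.7 to 17.1) in WT. Cd5 was the only one of the 9 genes at least 2-fold higher in this step in both libraries, against 2.54% of all genes in cKO and 2.86% in WT. Agonist-signalled-like cells held 504 in cKO and 538 in WT, mature Treg-gene-low cells 381 in cKO and 400.4 in WT and Treg-like cells 323 in cKO and 456 in WT. Non-T cells held 28.1 in cKO and 85.7 in WT, and B cells are known to include a CD5-positive subset. Thinned cells with a Cd5 UMI made up 65% (cKO) and 66.2% (WT) of post-selection-like, 13.8% (cKO) and 12.9% (WT) of Trac-high resting DP-like, 0.442% (cKO) and 0.189% (WT) of DN3-like and 5.48% (cKO) and 8.24% (WT) of non-T cells.

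**Figure D3:**
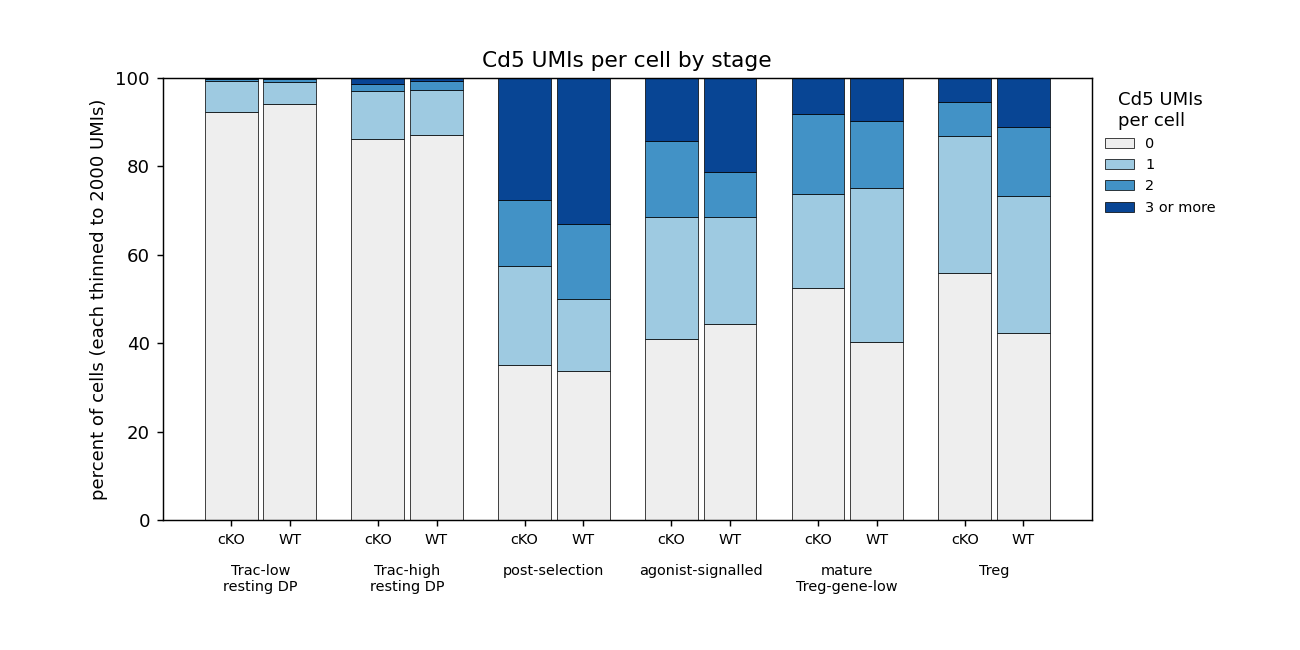
Share of cells (y axis, percent) with 0, 1, 2 or at least 3 Cd5 UMIs after thinning to 2000 UMIs per cell, in 6 stages, with cKO left of WT in each pair. Post-selection-like cells hold the most cells with at least 3 UMIs, and in Treg-like cells the share with none is 55.8% in cKO and 42.3% in WT.

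On the log2 scale the largest genotype difference of the 9 genes in the 11 stages was that of Cd5 in Treg-like cells. The cKO library had 617 Cd5 UMIs in 325 cells and the WT library 861 UMIs in 306 cells, which is 323 in cKO and 456 in WT. The ratio was 0.708 (0.638 to 0.786) and the log2 value -0.49, short of the 1.5-fold call that 7.37% of genes reached in this stage. Per cell, Cd5 UMIs averaged 1.9 in cKO and 2.81 in WT. After thinning, 44.2% of cKO and 57.7% of WT Treg-like cells held a Cd5 UMI, and 5.33% of cKO and 11% of WT cells held at least 3. The direction was the same under all 13 alternatives, with log2 values from -0.59 to -0.32. In post-selection-like cells the ratio was 0.873 (0.776 to 0.982), in agonist-signalled-like cells 0.937 (0.82 to 1.07) and in mature Treg-gene-low cells 0.952 (0.755 to 1.2), and whether these differ from the Treg-like ratio was not tested.

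Other genes of the Treg-like cells differed between the libraries in both directions, while Foxp3 was close, at 304 CPM in cKO and 311 in WT. Klf2, an egress gene that was part of the gate, stood at 1935 in cKO and 1422 in WT. Cd8a was at 66.5 in cKO and 22.2 in WT and Cd69 at 323.5 in cKO and 271.7 in WT. Lower in cKO were Nr4a1, an early TCR response gene, at 118 in cKO and 165 in WT, and Nr4a3, at 41.4 in cKO and 83.2 in WT. Ikzf2 was also lower, at 1091 in cKO and 1428 in WT. With the cells split by Klf2 and S1pr1, a split chosen after these values were seen, Cd5 stood at 327.6 CPM in 259 cKO and 495 in 207 WT cells with at least 10 UMIs of both genes per 10000. That ratio was 0.662 (0.584 to 0.749), past 1.5-fold (log2 -0.59), where 9.15% of genes were. In the cells below that level Cd5 was at 309.5 CPM in 66 cKO and 396 in 99 WT cells, a ratio of 0.781 (0.638 to 0.953). Cd5 was lower in cKO on both sides of the split. Cd247 in the low cells was at 232 CPM in cKO and 143 in WT, a ratio of 1.62 (1.23 to 2.13), where 17.7% of genes passed 1.5-fold, while in the high cells it was at 195 in cKO and 198 in WT. The part of Klf2, S1pr1, Nr4a1, Ikzf2 and Cd8a in the Cd5 difference was not tested.

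**Figure D4:**
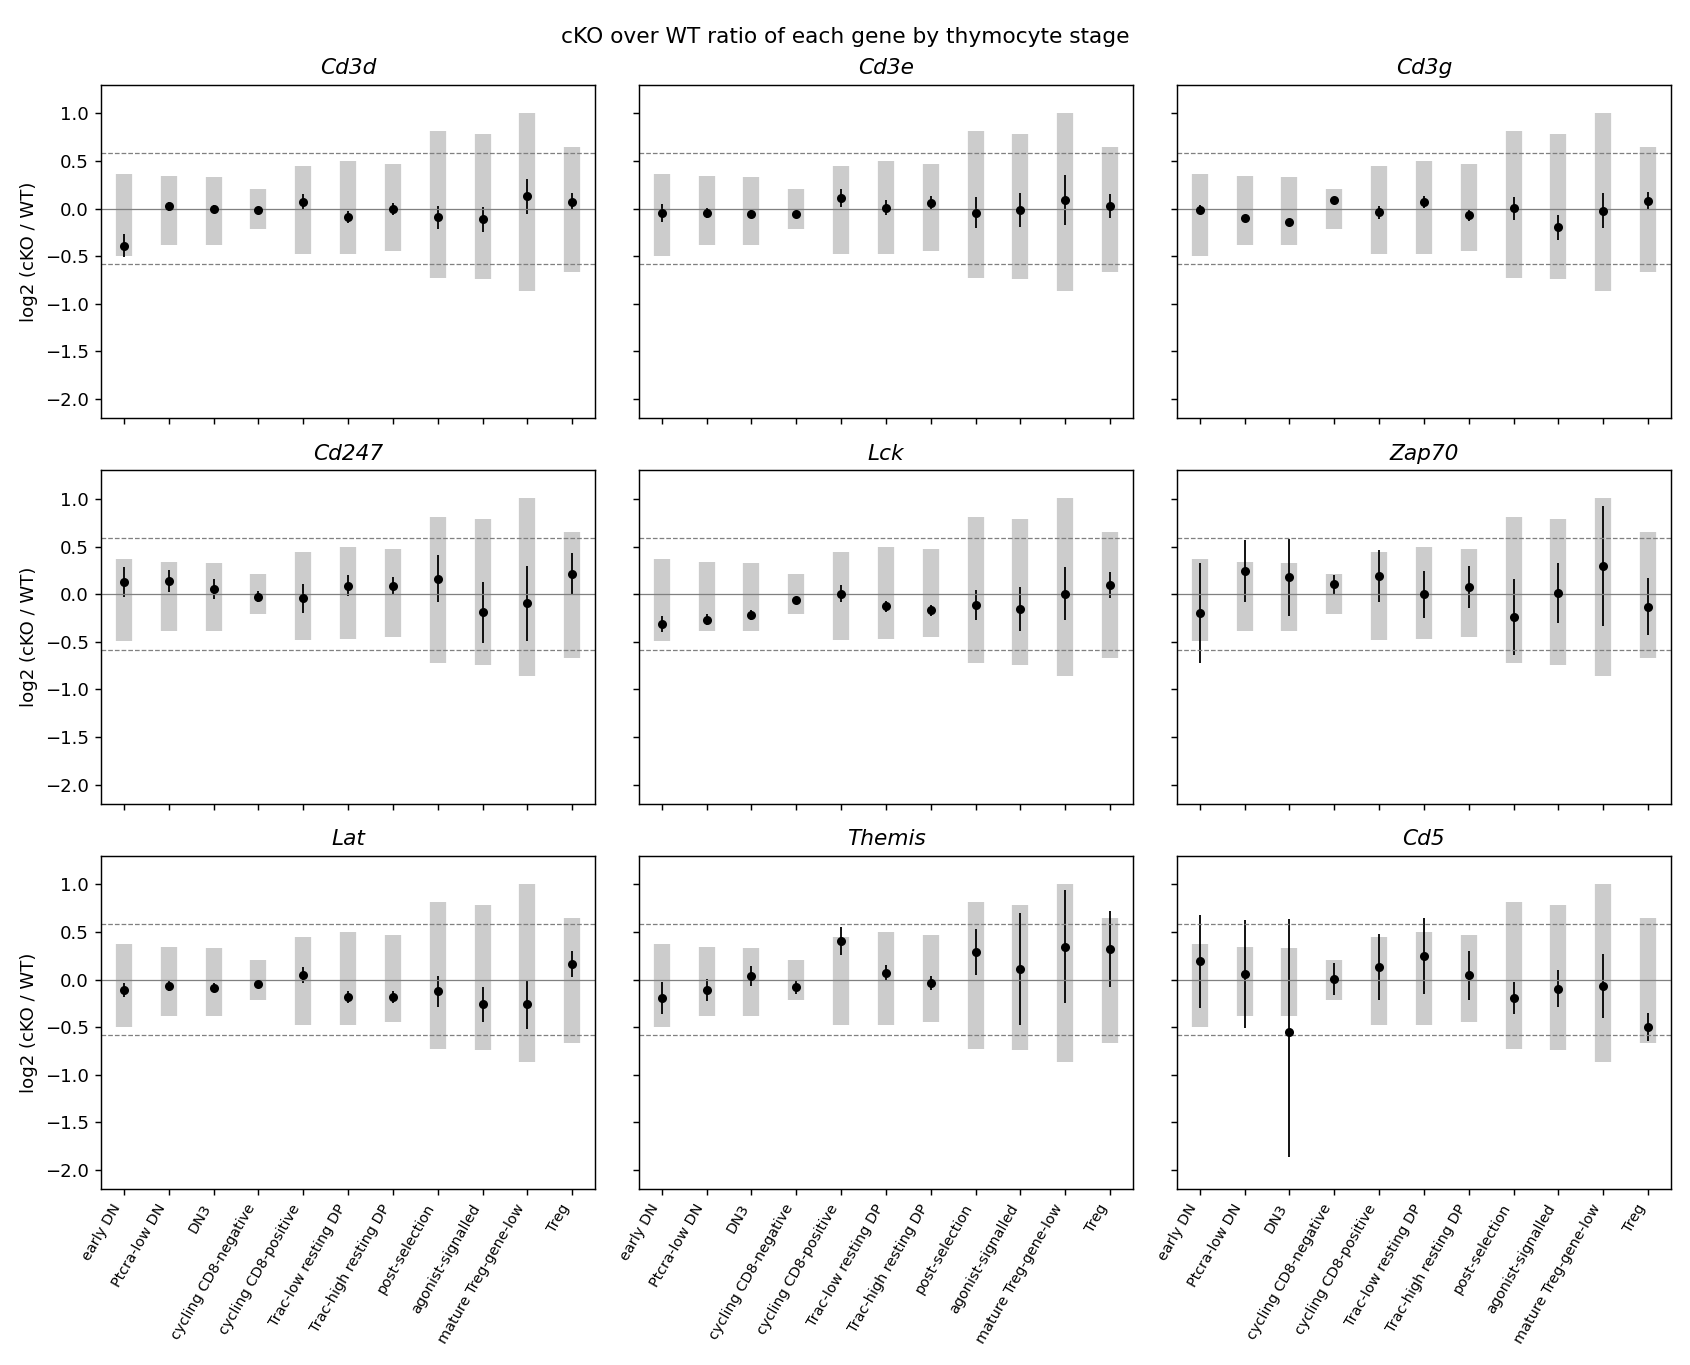
log2 of the cKO over WT ratio of CPM (y axis) of the 9 genes in 11 stages (x axis). Points carry exact 95% intervals for counting error, grey bars span the central 95% of log2 ratios of all genes with at least 20 UMIs in that stage, and dashed lines mark 1.5-fold. Lck and Lat lie below 0 in the DN and DP stages, and Cd5 in Treg-like cells is the lowest point with a narrow interval.

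Lck and Lat were the members whose cKO over WT ratio lay above 1 in the fewest stages, 3 of 11 for Lck and 2 of 11 for Lat, and the differences were small. Cd247, Zap70 and Themis each lay above 1 in 7 of 11 stages. Lck was lower in cKO beyond counting error in 6 of 11 stages and higher in none. Its ratio was 0.804 (0.758 to 0.852) in early DN-like, 0.83 (0.798 to 0.863) in Ptcra-low DN-like and 0.86 (0.831 to 0.889) in DN3-like cells, the stages taken to precede most deletion. In resting DP-like cells it was 0.914 (0.876 to 0.954) with low and 0.89 (0.855 to 0.925) with high Trac. In cycling CD8-negative cells the Lck ratio was 0.958 (0.936 to 0.98) and in Treg-like cells 1.07 (0.969 to 1.17). How these ratios relate to the deletion was not tested. Lat was lower in cKO beyond counting error in 8 stages, with 0.881 (0.841 to 0.922) in Trac-low and 0.881 (0.844 to 0.919) in Trac-high resting DP-like and 0.837 (0.736 to 0.95) in agonist-signalled-like cells, and higher in 1, Treg-like cells, at 1.12 (1.02 to 1.23). In post-selection-like cells the Lat ratio was 0.917 (0.822 to 1.02), within counting error. The thinned share of these cells with a Lat UMI was 79.5% in cKO and 91.5% in WT, with 73 cKO and 23 WT cells left out. Counting intervals leave out the spread between mice and captures, so these small ratios are given as the values of 2 libraries. The share of all genes with such stage counts was not taken. The all-gene median log2 ratio was -0.051 in early DN-like, -0.028 in Ptcra-low DN-like and -0.033 in DN3-like cells. With it subtracted, Lck stood at -0.261, -0.239 and -0.184 and Lat at -0.058, -0.043 and -0.050 in these stages. The central range of all genes (grey bars above) ran from -0.494 to 0.369 in early DN-like cells. Every Lck and Lat value lay within that range of its stage.

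Among the other members, Cd3d was lower in cKO early DN-like cells, at 0.764 (0.704 to 0.829), where both levels were near those of non-T cells. Cd3g was 0.905 (0.888 to 0.922) in DN3-like and 0.937 (0.919 to 0.956) in Ptcra-low DN-like cells, and 1.06 (1.05 to 1.08) in cycling CD8-negative cells. Themis was higher in cKO in cycling CD8-positive cells (215 in cKO and 163 in WT) and in post-selection-like cells, at a ratio of 1.22 (1.03 to 1.45). Thinned post-selection-like cells with a Themis UMI made up 60.5% (cKO) and 44.4% (WT). Some markers of these cells also differed, with Ptcra at 17.3 in cKO and 3.68 in WT and Klf2 at 32.2 in cKO and 88.4 in WT. Tnfrsf9 was at 37.1 in cKO and 81 in WT, while Rag1 was close, at 78 in cKO and 77.3 in WT. Their part in the Themis, Lat and Cd5 ratios of this stage was not tested. Zap70, Cd247 and Cd3e each had ratios within 0.845 to 1.22 in all 11 stages. Over the 99 values, the interval left out 1 in 35, of which 9 were above and 26 below. The share of all genes doing so was not counted, so these numbers are not read as a trait of the 9 genes.

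A gate for innate and effector lymphocytes, outside the 11 stages, held 55 cKO and 57 WT cells. Here Cd5 had 61 UMIs in cKO and 112 in WT cells, which is 71.5 in cKO and 149.6 in WT, and its ratio of 0.478 (0.344 to 0.659) was past 1.5-fold, the only such member value in this gate and the 11 stages. In this gate 17.7% of all genes were past it and 8.82% were lower. The cells of the gate differed in make-up between libraries, with Foxp3 at 23.4 in cKO and 77.5 in WT, Tnfrsf4 at 75 in cKO and 433 in WT, Xcl1 at 959 in cKO and 94.8 in WT and Trdc, the TCRδ constant gene, at 575 in cKO and 279 in WT CPM. No CD3 gene was found in 30.9% of cKO and 19.3% of WT of these cells after thinning. Their part in the Cd5 difference was not tested.

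Beyond the 9 genes, 53 other genes of proximal TCR signalling were listed, among them the kinase Fyn, the adaptor Lcp2 and the negative regulators Csk and Ptpn22. In the 11 stages 43 to 53 of them had at least 20 UMIs. Genotype ratios past 1.5-fold with at least 50 UMIs were few. Sla, which encodes an adaptor that lowers TCR levels on DP thymocytes, was higher in cKO in early DN-like cells, at 60.03 CPM in cKO and 29.1 in WT, where the list had 1 of 52 genes higher and 0 lower and 1.69% of all genes passed. Sla was also higher in Ptcra-low DN-like (54.8 in cKO and 31.6 in WT), DN3-like (42.1 in cKO and 19.7 in WT) and mature Treg-gene-low cells (122 in cKO and 49.1 in WT). These are the only stages with Sla past that size, and 3 of them are DN stages. Ubash3a, a phosphatase family gene that restrains TCR signals, was higher in cKO DN3-like cells (104 in cKO and 67.01 in WT). Rasgrp1, the Ras activator downstream of Lat, was lower in cKO Ptcra-low DN-like cells (45.8 in cKO and 74.8 in WT). Malt1, a subunit of the complex that links the TCR to NF-κB, was at 37.2 in cKO and 64.6 in WT Treg-like cells. In post-selection-like cells, where 12.1% of all genes passed, Malt1 was at 56.9 in cKO and 33.1 in WT. That value came from 46 UMIs in cKO and 18 in WT, and its interval of 0.977 to 3.15 included 1. Trat1, a TCR-associated adaptor gene, was at 38.02 in cKO and 73.4 in WT agonist-signalled-like cells.

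The step from DN3-like to resting DP-like cells moved the wider list too. At least 2-fold higher in DP-like cells were 24 of 50 listed genes in cKO and 22 of 52 in WT, with 22 shared, against 9.76% of all genes in cKO and 8.89% in WT. Of the 9 genes 4 were (Cd247, Zap70, Themis and Cd5), and 1 (Cd3g) was at least 2-fold lower, against 6.99% of all genes in cKO and 7.52% in WT. The DN3-like level of Zap70 lay below that of non-T cells, so the size of its rise is uncertain. The largest shared rises were in Txk, a Tec family kinase gene, at 479 CPM in cKO and 452 in WT DP-like cells, against 19.5 in cKO and 20.6 in WT DN3-like cells. Cd6, a relative of Cd5, stood at 214 in cKO and 231 in WT DP-like cells and at 8.38 in cKO and 6.23 in WT DN3-like cells. Cblb, an E3 ubiquitin ligase gene that limits TCR signalling, was lower in DP-like cells, with 20.5 in cKO and 19.97 in WT, against 100.4 in cKO and 126 in WT DN3-like cells. From post-selection-like to agonist-signalled-like cells, 15 of 49 listed genes in cKO and 16 of 48 in WT were at least 2-fold lower, 12 of them in both, against 11.1% of all genes in cKO and 10.7% in WT. Of the 9 genes Lck and Themis were in both libraries and Cd247 in cKO.

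The genes whose level followed the 4 CD3 complex genes most closely were found by Pearson's correlation of log2 levels over the 11 stages with the mean profile of Cd3d, Cd3e, Cd3g and Cd247, within each library, among 4761 genes. The 5 highest outside the members were Birc6 (r = 0.913 in cKO and 0.918 in WT), Gpr132 (0.913 in cKO and 0.923 in WT), Ctsb (0.904 in cKO and 0.915 in WT), Rab11fip2 (0.903 in cKO and 0.906 in WT) and Zfp950 (0.901 in cKO and 0.878 in WT). The median over all genes was 0.246 in both libraries. Of the other members, Lck had 0.851 in cKO and 0.832 in WT, Lat 0.82 in cKO and 0.834 in WT, and Themis 0.725 in cKO and 0.693 in WT. Zap70, at 0.308 in cKO and 0.290 in WT, and Cd5, at 0.168 in cKO and 0.158 in WT, did not follow the CD3 profile. The 11 stages of a library share that library and its depth, so these values describe likeness and carry no p-value.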

How the data were processed

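Single-cell RNA was counted in 1 cKO and 1 WT thymus library. The authors deposited a matrix of unnormalised UMI counts for each library. Per the file headers and the submitters' processing notes they come from Cell Ranger 6.1.1, and the notes also name CASAVA 1.8 and Seurat 4.0.3. No genome build is named in the sources used here, and promoter coordinates are RefSeq's on GRCm38.p6, whose table matched all 9 genes.

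Cells needed 500 genes, 1000 UMIs and no more than 10% mitochondrial UMIs. Doublet scores came from scrublet in scanpy 1.11.5 under Python 3.11.15. Its automatic threshold called 1 cKO barcode, so the WT threshold of 0.29 was used for both, which removed 129 cKO and 148 WT barcodes. Stages were gated on marker UMIs per 10000, such as Cd8a and Cd8b1 (at least 5), cycle genes (at least 10), V(D)J and DP genes (at least 20) and Trac (at least 2, or 5 for Trac-high). The gates used none of the 9 genes. Another 675 cKO and 546 WT cells met no gate. 1 of the fixed markers, Tcrg-C1, was not used because its symbol was not matched.

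UMIs were summed per stage and library and scaled to the sum. Log2 ratios use a pseudocount of 5 CPM (counts per 1000000), Poisson and Clopper-Pearson intervals have 95% coverage, and shares come from cells thinned to 2000 UMIs. The computation was tested on simulated counts with known folds. Members, gene lists and stage pairs were chosen with earlier results of these data known, and gate thresholds were set after marker values, but not member values, had been seen. The 9 genes are named in every stage. Listed pathway genes are named when at least 1.5-fold apart with at least 50 UMIs (at most 3 per direction), or at least 2-fold apart between stages in both libraries. Leiden clusters (resolution 1.5, 30 components, 15 neighbours, 2000 variable genes) gave 1 alternative set of stages, and the others varied gates, cell filters, doublets, scaling and pseudocount.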

Additional observations from a re-analysis of the deposited data

How the results depend on the processing

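The median log2 cKO over WT ratio of the 9 genes moved by more than counting error in 4 of its alternatives. In DN3-like cells it was -0.05, against 0.018 with stages taken from clusters and -0.17 with the stricter cell filter. In Ptcra-low DN-like cells it was -0.05, against -0.11 with gates read on thinned cells. In cycling CD8-positive cells it was 0.07, against 0.21 with means of per-cell values. The cause was not tested. Of 1089 recomputed values for single genes in a stage, 1012 stayed within counting error and 77 moved. None of the main stage values was past 1.5-fold, and 5 passed it under 1 alternative each. Cd5 did with clusters in Ptcra-low DN-like cells (log2 0.67), cycling CD8-positive cells (0.64) and Trac-low resting DP-like cells. Themis did in cycling CD8-positive cells with means of per-cell values (0.66) and in mature Treg-gene-low cells with gates read on thinned cells (0.64). In the split of Treg-like cells added later, Cd5 and Cd247 passed it on 1 side each. Clusters gave no value for early DN-like or mature Treg-gene-low cells, and only 68 cells for the Trac-low resting DP-like stage, where Cd5 had a log2 ratio of -1.80, against 0.22 with the gates. Themis in Treg-like cells had a log2 ratio of -0.02 with only cells holding a Foxp3 UMI, an alternative chosen after seeing the data, against 0.29 with all gated cells. The share of genes past 1.5-fold lay between 0.322% and 17.7% over stages, and between 0.233% and 39.9% with no UMI minimum. No paired analysis was possible because each genotype has 1 library, and the replicate number they share pairs nothing. The stages with the fewest UMIs, mature Treg-gene-low and post-selection-like cells, and genes with few UMIs, such as Cd5 and Zap70 in DN-like cells, set the limit of what can be told apart.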
